A study of Mus musculus with 3 samples.

Results

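Transcripts of 10 genes of the bone morphogenetic protein (BMP) pathway were followed through single cells of the mouse left ventricle. The genes were taken by symbol from the 30360 genes in the deposited count matrices, and all 10 were found. They are the ligands Bmp2, Bmp4 and Bmp6, the receptors Bmpr1a, Acvrl1 and Bmpr2, the co-receptor Eng, the secreted modulators Bmper and Grem1, and the target gene Id1. Their counts of unique molecular identifiers (UMIs, one per captured RNA molecule) were read in each library and in each cell class.

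The 3 libraries came from C56Bl6 mice, with 1 library per group, each labelled as 4 pooled samples. HFpEF-FoxO1-sh mice were kept for 6 weeks on the High-Fat + L-NAME diet, with AAV-FoxO1-sh, a viral vector carrying a short hairpin against FoxO1, for 4 weeks. HFpEF-scr mice had the same diet for the same time and AAV-scramble-sh, the vector with a scrambled hairpin, for 4 weeks, and Control mice had a standard diet for 10 weeks with no vector named. The diet, which combines fat with an inhibitor of nitric oxide synthase, is a mouse model of HFpEF, heart failure in which the ejection fraction is preserved, so HFpEF-scr and Control differ in diet and vector together. Cardiomyocytes were strained out before capture, and the labels name neither the cells that the vector enters nor its promoter.

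BMPs are secreted dimers of the TGF-beta superfamily that bring together type I and type II receptor kinases, which phosphorylate SMAD1, SMAD5 and SMAD9, and these enter the nucleus with SMAD4 to switch on genes such as Id1. Endothelial cells use the type I receptor ALK1, encoded by Acvrl1, with the co-receptor endoglin, encoded by Eng, and the type II receptor encoded by Bmpr2, and inherited loss of these in humans causes hereditary haemorrhagic telangiectasia or pulmonary arterial hypertension. Extracellular proteins such as BMPER and Gremlin bind the ligands and set how much of them reaches the receptors.

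The matrices held 27453, 36179 and 33022 cell barcodes with 144561934, 154385813 and 146230530 UMIs in HFpEF-FoxO1-sh, HFpEF-scr and Control. Of these, 16854, 14567 and 12757 cells were kept, with median depths of 6607, 6520 and 6889 UMIs. Libraries differed in quality: 31.2% of barcodes in HFpEF-FoxO1-sh, 53.8% in HFpEF-scr and 56.9% in Control lay over the limit of 20% mitochondrial UMIs, and kept cells had medians of 9.32%, 12.6% and 12.9%. Pairs of libraries shared 238 to 335 barcodes, of which 37 to 61 were kept in both. Foxo1, the hairpin's target, stood at 59.7, 56.2 and 61.1 CPM (a gene's UMIs scaled to a class total of 1000000) in the kept cells of HFpEF-FoxO1-sh, HFpEF-scr and Control. Over all kept cells the library labelled HFpEF-FoxO1-sh stood at a ratio of 1.06 to HFpEF-scr (95% interval 1.03 to 1.10), between the other libraries. By class, Foxo1 was at 64.3, 59.2 and 64.2 CPM in fibroblasts, 14.1, 12.0 and 14.9 CPM in macrophages, and 64.1, 81.3 and 67.7 CPM in endothelial cells. Only in endothelial cells, among these classes, was it lower in HFpEF-FoxO1-sh than in HFpEF-scr (ratio 0.788, 0.682 to 0.908). The label is thus not checked by this gene, and each group name here means the library so labelled.

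Kept cells formed 41 clusters, and 15 classes named from marker genes had at least 50 cells in every library. The class names mean cells like that type by their markers, and none of the 10 genes was a marker or was used for clustering. Fibroblasts were the most numerous, with 10382, 9091 and 8262 cells, followed by macrophages with 1949, 1511 and 1086 cells in HFpEF-FoxO1-sh, HFpEF-scr and Control. Endothelial, smooth muscle and endocardial cells had 361 to 630 cells per library. Every marker on the lists of these 5 classes had UMIs in its own class in every library. In the platelet and erythroid classes the 10 fibroblast markers summed to between 30682 and 48285 CPM, against 48953 to 49586 CPM in fibroblasts, so levels of fibroblast genes there are not read as levels of platelets or red cells. With 1 library per group no test was possible. Each ratio is the CPM of the first library named over that of the second and compares libraries, not conditions, and 95% intervals, in brackets, cover counting error only.

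The sequences just upstream of the RefSeq start of 4 of the genes are shown, and their transcripts were not all highest in the same class. Eng and Bmpr2 were highest in endocardial cells, Bmp4 in fibroblasts and endocardial cells, and Bmper in fibroblasts. Each is the 250 bases before the start of transcription in RefSeq (build GRCm38.p6), read 5′ to 3′ on the gene's own strand. Gene positions given further below come from another annotation, GENCODE, and its starts can differ. The Bmpr2 window lies inside the Bmpr2 positions given there, as do the windows of Bmpr1a and Bmp6 for their genes. Windows were found for 7 of the 10 genes. Capitals mark a match on either strand to 1 of 3 motifs: GGCGCC, a GC-rich motif of SMAD1 and SMAD5, GTAAACA, a forkhead motif, and CCGGAA, an ETS motif. The Eng window is chr2:32646345-32646594 on the plus strand, the Bmpr2 window chr1:59764029-59764278 on the plus strand, the Bmp4 window chr14:46390670-46390919 on the minus strand and the Bmper window chr9:23222826-23223075 on the plus strand.
Eng: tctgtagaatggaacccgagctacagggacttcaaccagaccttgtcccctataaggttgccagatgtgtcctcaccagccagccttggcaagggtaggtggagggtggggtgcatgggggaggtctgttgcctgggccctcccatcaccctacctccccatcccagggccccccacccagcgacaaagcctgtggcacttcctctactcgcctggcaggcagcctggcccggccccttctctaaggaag
Bmpr2: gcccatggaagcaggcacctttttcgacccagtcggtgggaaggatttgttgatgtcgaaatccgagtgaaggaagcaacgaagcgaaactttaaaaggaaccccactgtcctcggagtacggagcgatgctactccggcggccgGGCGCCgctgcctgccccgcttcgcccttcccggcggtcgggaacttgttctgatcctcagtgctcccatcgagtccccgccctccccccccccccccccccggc
Bmp4: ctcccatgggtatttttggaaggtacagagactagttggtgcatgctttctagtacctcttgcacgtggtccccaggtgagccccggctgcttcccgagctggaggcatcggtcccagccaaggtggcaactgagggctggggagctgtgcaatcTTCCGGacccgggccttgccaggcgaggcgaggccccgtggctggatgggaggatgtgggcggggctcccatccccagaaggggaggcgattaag
Bmper: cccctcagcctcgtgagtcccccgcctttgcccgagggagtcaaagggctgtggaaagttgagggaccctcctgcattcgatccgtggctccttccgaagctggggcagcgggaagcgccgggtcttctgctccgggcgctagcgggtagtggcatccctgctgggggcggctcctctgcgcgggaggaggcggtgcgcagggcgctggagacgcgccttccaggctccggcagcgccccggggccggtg
The Bmp4 window held 1 match to CCGGAA, read as TTCCGG on the strand shown. The Bmpr2 window held 1 match to GGCGCC, as did the windows of Bmpr1a and Grem1, and those of Eng, Bmper and Bmp6 held 0 matches to any of the motifs. No window held GTAAACA, and no matches overlapped. Among 32851 mouse windows of 250 bases, 12.0% held CCGGAA, 9.59% held GGCGCC and 3.17% held GTAAACA. A match or its absence says nothing of which factor binds.

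Bmp2 (ENSMUSG00000027358, GRCm38 chromosome 2, 133552159 to 133562885, plus strand, 3 exons) encodes a ligand of type I receptors such as BMPR1A. In macrophages, which engulf debris and signal to neighbouring cells, it was about as high in HFpEF-FoxO1-sh as in Control and lower in HFpEF-scr. Macrophages held 816 Bmp2 UMIs in HFpEF-FoxO1-sh, 305 in HFpEF-scr and 451 in Control, or 62.7 CPM (58.5–67.2), 30.8 CPM (27.5–34.5) and 58.6 CPM (53.3–64.2). HFpEF-scr stood apart as the low library, and the counting intervals of the other libraries overlapped each other but not that of HFpEF-scr. The ratio of HFpEF-FoxO1-sh relative to HFpEF-scr was 2.03 (1.78–2.33), and that of HFpEF-scr relative to Control was 0.526 (0.454–0.610). These comparisons share the HFpEF-scr library, so they are not independent of each other.

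The same order of libraries was found for Bmp2 in both macrophage clusters. In the cluster led by Folr2 and F13a1, genes of resident macrophages, Bmp2 was at 83.1, 48.8 and 79.5 CPM in HFpEF-FoxO1-sh, HFpEF-scr and Control. In the cluster led by the antigen-presentation genes H2-Eb1 and H2-Ab1 it was at 32.0, 10.7 and 23.1 CPM in the same libraries. The share of cells with the transcript was also lowest in HFpEF-scr: 19.7% of macrophages had a Bmp2 UMI in HFpEF-FoxO1-sh (17.9%–21.5%), 13.8% in HFpEF-scr (12.1%–15.7%) and 19.0% in Control (16.7%–21.4%). After thinning each cell to 1000 UMIs the shares were 4.87%, 3.38% and 4.60%, with overlapping intervals. Lymphatic endothelial cells, of similar depth (medians of 5906 to 6544 UMIs, beside 5903 to 6603 in macrophages), gave a background of 0.683%, 2.30% and 1.07% of cells with a Bmp2 UMI before thinning. The 10 cells with the most Bmp2 held 16.1%, 17.4% and 27.1% of the UMIs in the 3 libraries. The 10 fibroblast markers summed to 1017, 1177 and 1216 CPM in macrophages, and their part in the Bmp2 values was not tested. In 13 alternatives of processing the ratio stayed between 1.70 and 2.99 for HFpEF-FoxO1-sh relative to HFpEF-scr and between 0.463 and 0.616 for HFpEF-scr relative to Control.

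**Figure D1:**
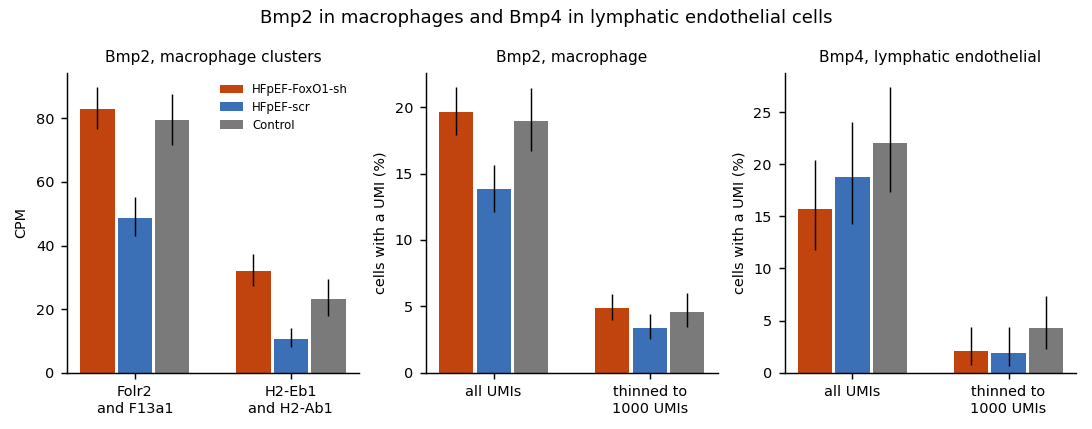
Bmp2 in macrophages and Bmp4 in lymphatic endothelial cells. The left panel gives Bmp2 CPM in the macrophage clusters led by Folr2 and F13a1 and by H2-Eb1 and H2-Ab1, and the others the percent of cells with a UMI before and after thinning to 1000 UMIs per cell. Bars are libraries (HFpEF-FoxO1-sh left, HFpEF-scr middle, Control right), with 95% Poisson intervals for CPM and 95% Clopper-Pearson intervals for percents. Bmp2 was lowest in HFpEF-scr in both clusters.

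Fibroblasts, smooth muscle, endothelial and endocardial cells did not follow that order for Bmp2. In fibroblasts, which held 66.2%, 71.1% and 65.7% of all Bmp2 UMIs, it was at 31.5, 31.7 and 26.3 CPM in HFpEF-FoxO1-sh, HFpEF-scr and Control. There HFpEF-FoxO1-sh relative to HFpEF-scr was 0.993 (0.934–1.05) and HFpEF-scr relative to Control 1.20 (1.13–1.29). In smooth muscle cells Bmp2 was at 27.1, 41.8 and 34.4 CPM, with a ratio of 0.649 (0.497–0.844) for HFpEF-FoxO1-sh relative to HFpEF-scr. That ratio was 0.496 in the cluster led by Myh11 and Sorbs2 and 1.06 in the cluster led by Acta2 and Sost, and it turned to 1.19 when cells were thinned to 1000 UMIs. Endothelial and endocardial cells were lower, between 4.88 and 15.2 CPM. By the middle value of the 3 libraries macrophages ranked first of the 15 classes for Bmp2. In HFpEF-scr, however, smooth muscle cells and fibroblasts stood above macrophages, and the ranges over libraries of macrophages (30.8 to 62.7 CPM), smooth muscle (27.1 to 41.8 CPM) and fibroblasts (26.3 to 31.7 CPM) overlapped.

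Bmp4 (ENSMUSG00000021835, chromosome 14, 46383520 to 46390669, minus strand, 4 exons), the ligand closest in sequence to BMP2, was chiefly a fibroblast transcript. Fibroblasts held 83.6%, 83.8% and 80.6% of its UMIs, at 108 CPM (106–110) in HFpEF-FoxO1-sh, 120 CPM (117–122) in HFpEF-scr and 102 CPM (99.3–104) in Control. The 3 intervals did not overlap, and the ratios were 0.901 (0.873–0.930) for HFpEF-FoxO1-sh relative to HFpEF-scr and 1.18 (1.14–1.22) for HFpEF-scr relative to Control. HFpEF-scr relative to Control was above 1 in 10 of 10 fibroblast clusters, from 1.03 to 1.29, while HFpEF-FoxO1-sh relative to HFpEF-scr was below 1 in 8 and above 1 in 2, from 0.811 to 1.21.

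Bmp4 also stood high in endocardial cells, the lining of the ventricle. There it had 383, 234 and 363 UMIs, or 130, 83.8 and 84.4 CPM, in HFpEF-FoxO1-sh, HFpEF-scr and Control, and the ratio of HFpEF-FoxO1-sh relative to HFpEF-scr was 1.55 (1.32–1.84). A single cell of HFpEF-FoxO1-sh held 118 of the 383 UMIs, and without the cell richest in Bmp4 in each library the ratio was 1.19. Fibroblast markers, which stand for another cell rich in Bmp4, summed to 5532, 4566 and 4335 CPM in endocardial cells, and their part in the result was not tested. The share of endocardial cells with a Bmp4 UMI was 23.8%, 17.3% and 19.8%, against 1.03%, 1.72% and 1.29% in macrophages, and median depths were 5474 to 6143 UMIs in endocardial cells and 5903 to 6603 in macrophages. In endothelial cells Bmp4 was at 39.5, 25.8 and 26.7 CPM, a ratio of 1.53 (1.24–1.90) for HFpEF-FoxO1-sh relative to HFpEF-scr, and within 3 endothelial clusters that ratio ranged from 1.19 to 1.61. Fibroblast markers summed to 6491, 4994 and 7150 CPM in endothelial cells, and their part was not tested.

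In lymphatic endothelial cells it was Control that differed for Bmp4. The class held 88, 82 and 203 Bmp4 UMIs, or 37.5 CPM (30.1–46.2) in HFpEF-FoxO1-sh, 38.8 CPM (30.8–48.1) in HFpEF-scr and 82.6 CPM (71.6–94.8) in Control. HFpEF-scr relative to Control was 0.469 (0.359–0.609), and HFpEF-FoxO1-sh relative to HFpEF-scr was 0.967 (0.708–1.32). The Control UMIs lay in few cells: 10 of them held 60.1% of the Control UMIs, and 15.7%, 18.8% and 22.1% of cells had a Bmp4 UMI, with overlapping intervals. Macrophages held only 26, 52 and 24 Bmp4 UMIs and are read as background for this gene.

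Bmp6 (ENSMUSG00000039004, chromosome 13, 38345107 to 38500302, plus strand, 7 exons), a ligand known in the liver for control of iron through hepcidin, had a clear peak in endocardial cells. Its level there was 239 CPM (221–257) in HFpEF-FoxO1-sh, 178 CPM (163–194) in HFpEF-scr and 203 CPM (190–217) in Control, and no other class overlapped this range. HFpEF-FoxO1-sh relative to HFpEF-scr was 1.34 (1.19–1.51) and HFpEF-scr relative to Control 0.877 (0.784–0.980). Between 45.7% and 55.0% of endocardial cells had a Bmp6 UMI, against 0.460% to 0.616% of macrophages. Fibroblasts were at 50.7, 49.1 and 44.6 CPM and endothelial cells at 52.7, 47.0 and 44.4 CPM in HFpEF-FoxO1-sh, HFpEF-scr and Control, and these overlapped each other. Smooth muscle cells were lower, at 9.77, 16.5 and 15.4 CPM, with a ratio of 0.593 (0.378–0.918) for HFpEF-FoxO1-sh relative to HFpEF-scr on 35 and 58 UMIs.

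**Figure D2:**
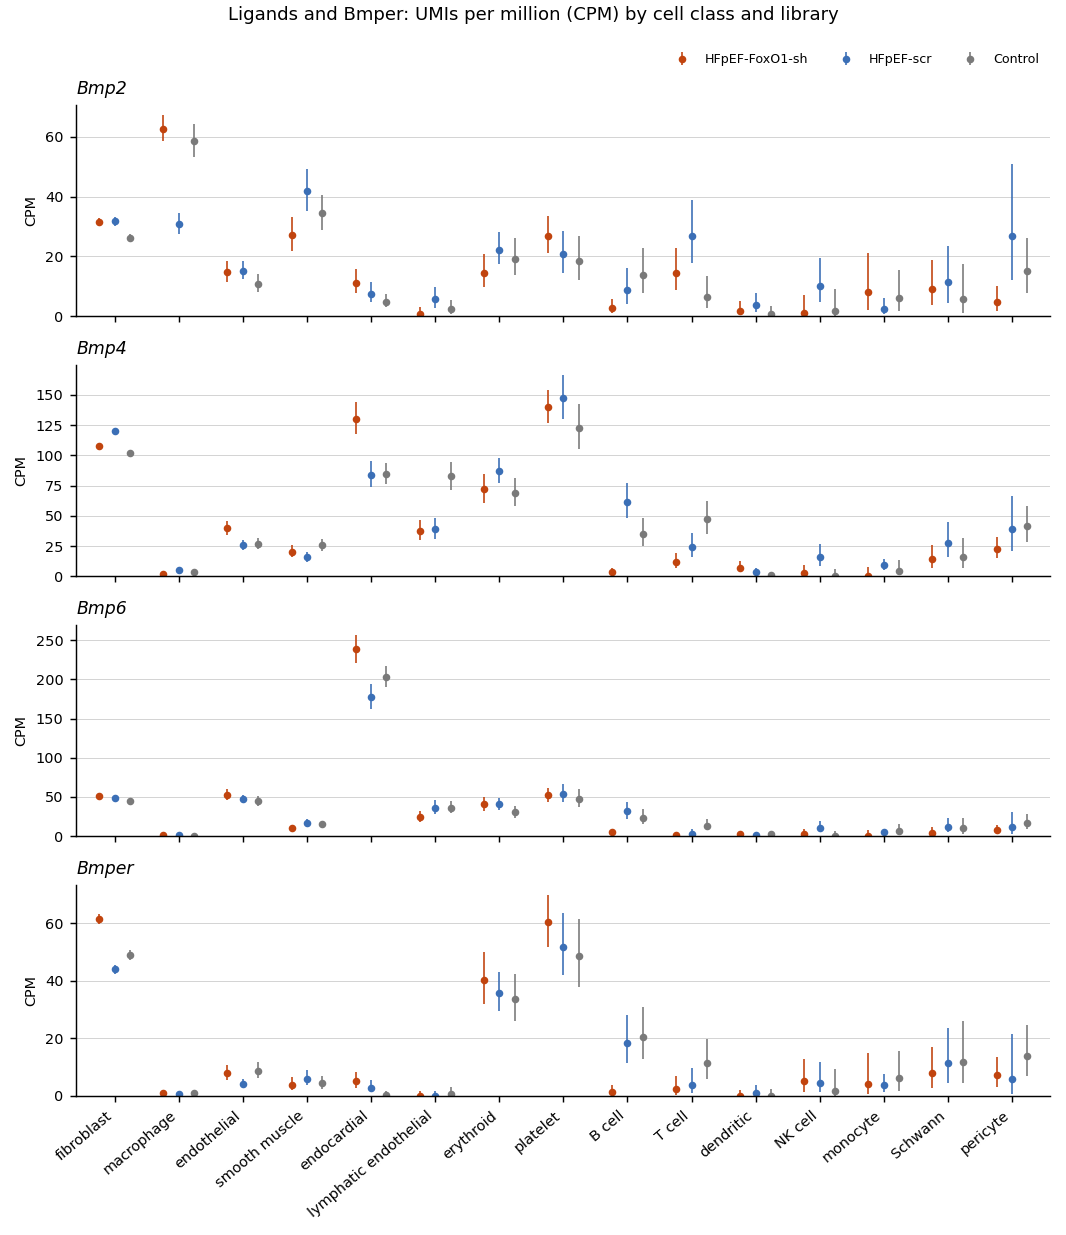
Bmp2, Bmp4, Bmp6 and Bmper in the 15 cell classes. Each point is the CPM of 1 class in 1 library (HFpEF-FoxO1-sh left, HFpEF-scr middle, Control right) on linear axes, and bars are 95% Poisson intervals of counting error. Bmp2 dipped in HFpEF-scr macrophages, Bmp6 peaked in endocardial cells at 178 to 239 CPM, and the platelet and erythroid classes lay near fibroblasts for Bmp4 and Bmper.

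Among the receptors, Bmpr1a (ENSMUSG00000021796, chromosome 14, 34410734 to 34503341, minus strand, 13 exons), the type I receptor for BMP2 and BMP4, was highest in smooth muscle and endocardial cells among the 15 classes. Smooth muscle cells were at 161, 172 and 156 CPM in HFpEF-FoxO1-sh, HFpEF-scr and Control, endocardial cells at 132, 125 and 114 CPM and fibroblasts at 100, 103 and 97.5 CPM. These 3 classes kept their order with no overlap over libraries. Endothelial cells had 31.2, 24.2 and 27.2 CPM and lymphatic endothelial cells 4.26, 2.84 and 2.85 CPM. In the 5 classes with the most cells, the ratios of Bmpr1a between libraries lay between 0.771 and 1.32. They moved with the mitochondrial limit: in endothelial cells HFpEF-FoxO1-sh relative to HFpEF-scr was 2.07 at 10% and 0.782 at 50%, and HFpEF-scr relative to Control was 0.646 and 3.08. In macrophages HFpEF-FoxO1-sh relative to HFpEF-scr was 0.551 at 10%, in place of 1.32.

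Acvrl1 (ENSMUSG00000000530, chromosome 15, 101128522 to 101145336, plus strand, 12 exons) encodes ALK1, which binds BMP9 and BMP10. Endothelial cells had 159 CPM (148–170) in HFpEF-FoxO1-sh, 128 CPM (119–137) in HFpEF-scr and 134 CPM (123–145) in Control. HFpEF-FoxO1-sh relative to HFpEF-scr was 1.24 (1.12–1.37) in endothelial cells and above 1 in 3 of 3 endothelial clusters. Of these clusters, that led by Fabp4, Gpihbp1 and Rgcc had a high median doublet score, 0.301. Another was led by Rgs5, a pericyte marker, and Rbp7. Lymphatic endothelial cells were level across libraries at 118, 118 and 122 CPM. Acvrl1 was not limited to endothelium: fibroblasts had 118, 109 and 115 CPM, and 53.1%, 47.8% and 51.7% of fibroblasts had a UMI. Within fibroblasts the cluster led by Wif1 and Prg4 stood out, with 23.5, 27.6 and 23.3 CPM, while the other 9 clusters lay between 94.2 and 160 CPM. In macrophages Acvrl1 was at 72.6, 54.9 and 63.2 CPM, a ratio of 1.32 (1.19–1.47) for HFpEF-FoxO1-sh relative to HFpEF-scr, and 1.13 and 1.59 within the 2 macrophage clusters.

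Genes for the ligands that ALK1 binds best had few UMIs in the 5 classes with the most cells. Gdf2, which encodes BMP9 and is made in the liver, and Bmp10, made in the right atrium of the adult mouse heart, reached at most 2.32 CPM there. The cardiomyocyte class, led by Sln and Myl7, had 76, 46 and 51 cells in HFpEF-FoxO1-sh, HFpEF-scr and Control and was not read for these genes.

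Bmpr2 (ENSMUSG00000067336, chromosome 1, 59763400 to 59879014, plus strand, 13 exons), the type II receptor, was found in every class and was highest in endocardial cells. These had 413, 434 and 398 CPM in HFpEF-FoxO1-sh, HFpEF-scr and Control, with no overlap with the next classes. Lymphatic endothelial cells followed at 282, 341 and 288 CPM and endothelial cells at 288, 295 and 254 CPM, which overlapped each other. HFpEF-scr was the highest of the 3 libraries for Bmpr2 in fibroblasts, endothelial, smooth muscle, endocardial and lymphatic endothelial cells. The sizes were small: HFpEF-FoxO1-sh relative to HFpEF-scr ran from 0.806 in smooth muscle to 0.977 in endothelial cells among these 5 classes, and HFpEF-scr relative to Control from 1.06 in fibroblasts to 1.26 in smooth muscle.

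Eng (ENSMUSG00000026814, chromosome 2, 32646595 to 32682669, plus strand, 15 exons) encodes endoglin, which presents ligand to ALK1. In endocardial cells it was at 2143 CPM (2090–2196) in HFpEF-FoxO1-sh, 2083 CPM (2030–2137) in HFpEF-scr and 2381 CPM (2335–2427) in Control, and 96.1%, 96.1% and 98.6% of these cells had an Eng UMI. Endothelial cells followed at 608, 565 and 579 CPM, then lymphatic endothelial cells at 275, 342 and 327 CPM and Schwann cells at 233, 250 and 220 CPM, each below the one before in every library. T cells, a class that should lack Eng, had a UMI in 3.36%, 5.37% and 13.1% of cells, with median depths of 4249, 4760.0 and 5194 UMIs, and fibroblast markers there summed to 1131, 4040 and 9510 CPM. Over all kept cells Eng was at 190, 207 and 250 CPM, and HFpEF-scr relative to Control was 0.830 (0.815–0.846). Endocardial cells were 2.14%, 2.97% and 4.59% of kept cells and held 28.0%, 27.1% and 42.7% of the Eng UMIs. Within endocardial cells HFpEF-scr relative to Control was 0.875 (0.847–0.904), and within fibroblasts it was 1.04 (1.01–1.07).

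**Figure D3:**
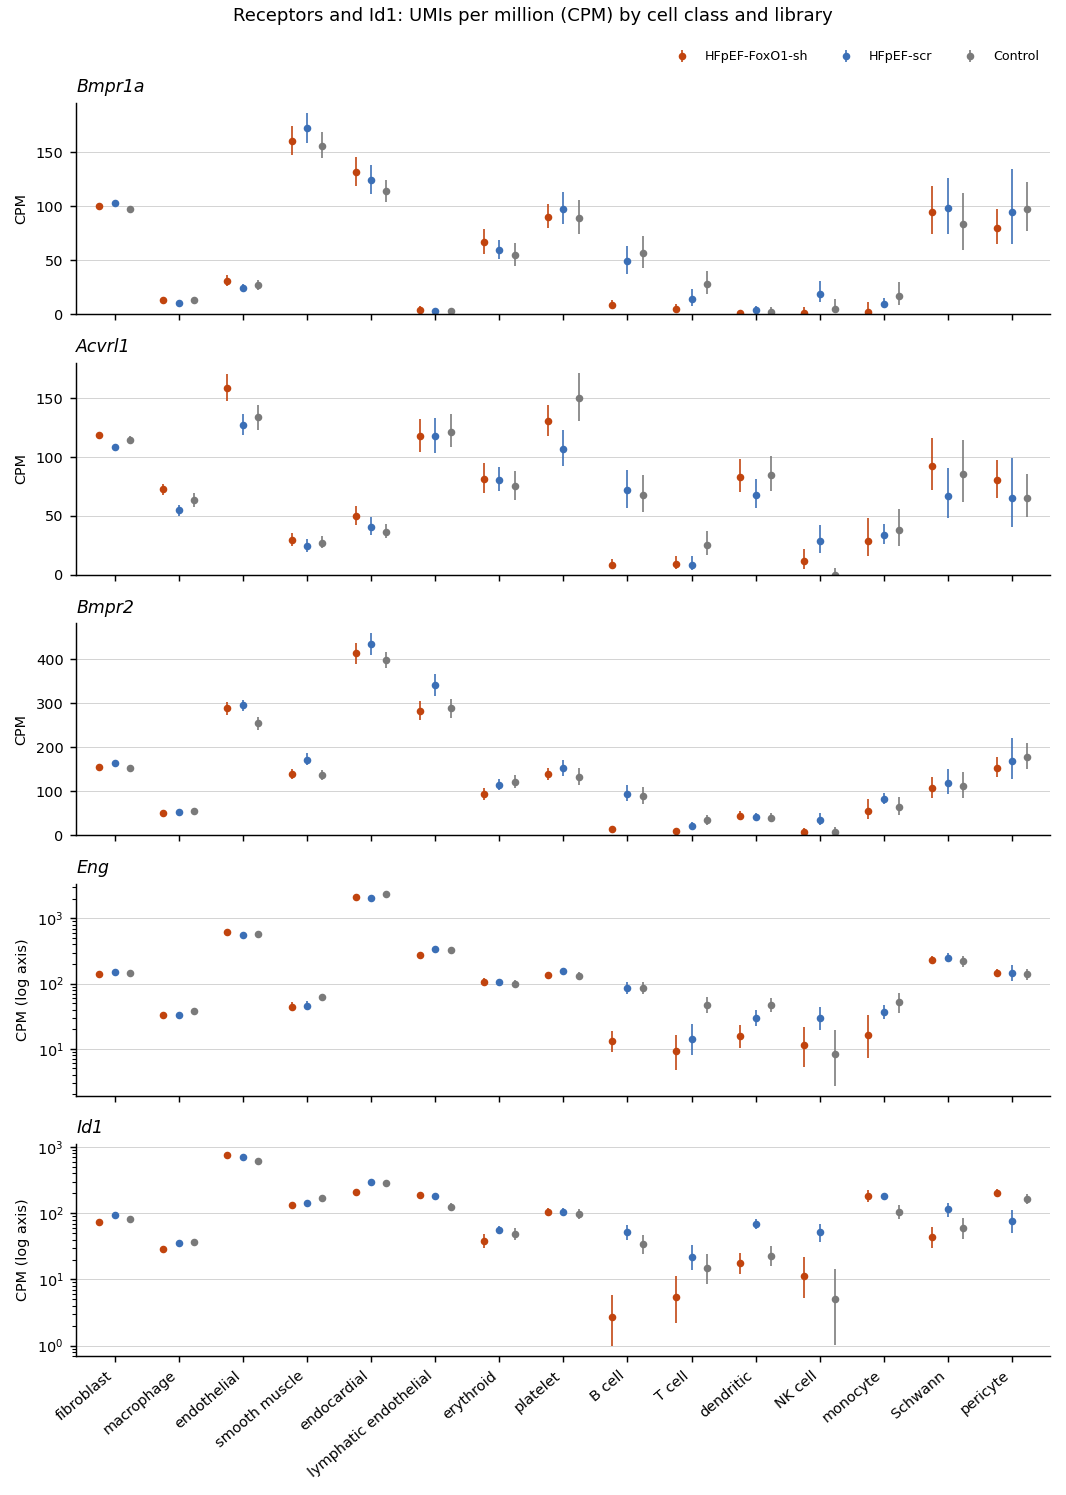
Bmpr1a, Acvrl1, Bmpr2, Eng and Id1 in the 15 cell classes. Points are CPM of 1 class in 1 library (HFpEF-FoxO1-sh left, HFpEF-scr middle, Control right) with 95% Poisson intervals, and the Eng and Id1 axes are logarithmic. Eng was highest in endocardial cells at 2083 to 2381 CPM, Id1 was highest in endothelial cells at 613 to 769 CPM, and in B cells each of the 5 genes was lowest in HFpEF-FoxO1-sh.

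Bmper (ENSMUSG00000031963, chromosome 9, 23223076 to 23485200, plus strand, 15 exons) encodes a secreted protein that binds BMPs and modulates their activity in vessels. Fibroblasts held 91.9%, 88.5% and 90.3% of its UMIs. There it had 4608, 2714 and 2903 UMIs, or 61.5 CPM (59.8–63.3) in HFpEF-FoxO1-sh, 44.0 CPM (42.3–45.7) in HFpEF-scr and 49.1 CPM (47.3–50.9) in Control. HFpEF-FoxO1-sh was the highest library, at a ratio of 1.40 (1.33–1.47) over HFpEF-scr, while HFpEF-scr relative to Control was 0.896 (0.850–0.944). HFpEF-FoxO1-sh relative to HFpEF-scr was above 1 in 10 of 10 fibroblast clusters, from 1.04 to 1.84. HFpEF-scr relative to Control was below 1 in 6 and above 1 in 3 of the 9 clusters measured, from 0.910 to 1.29, so none of these was as low as the class ratio. The share of fibroblasts with a Bmper UMI was 30.5%, 23.0% and 26.0% in HFpEF-FoxO1-sh, HFpEF-scr and Control, against 0%, 0% and 0.356% of lymphatic endothelial cells, where median depths were 5906 to 6544 UMIs beside 6502 to 6858 in fibroblasts. The 0 of 293 and 0 of 261 lymphatic cells allow up to 1.02% and 1.15% of cells with a captured UMI, which is no limit on cells that express the gene.

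Fibroblast clusters differed more from each other in Bmper than libraries did. The cluster led by Inmt and Cxcl14 was highest, at 129, 104 and 111 CPM, and that led by Cilp, a matrix gene of activated fibroblasts, and Cst6 was at 20.7, 19.9 and 17.4 CPM. The Inmt and Cxcl14 cluster made up 11.8%, 6.02% and 9.68% of fibroblasts in HFpEF-FoxO1-sh, HFpEF-scr and Control. With a limit of 10% mitochondrial UMIs the Bmper ratio of HFpEF-FoxO1-sh relative to HFpEF-scr in fibroblasts was 1.82.

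Grem1 (ENSMUSG00000074934, chromosome 2, 113746164 to 113758646, minus strand, 2 exons), a BMP antagonist, was seen as 1 UMI in each library over all kept cells. This is below the floor of 3 UMIs, which corresponds to 0.0253, 0.0290 and 0.0312 CPM in HFpEF-FoxO1-sh, HFpEF-scr and Control, so no ratio is given.

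**Figure D4:**
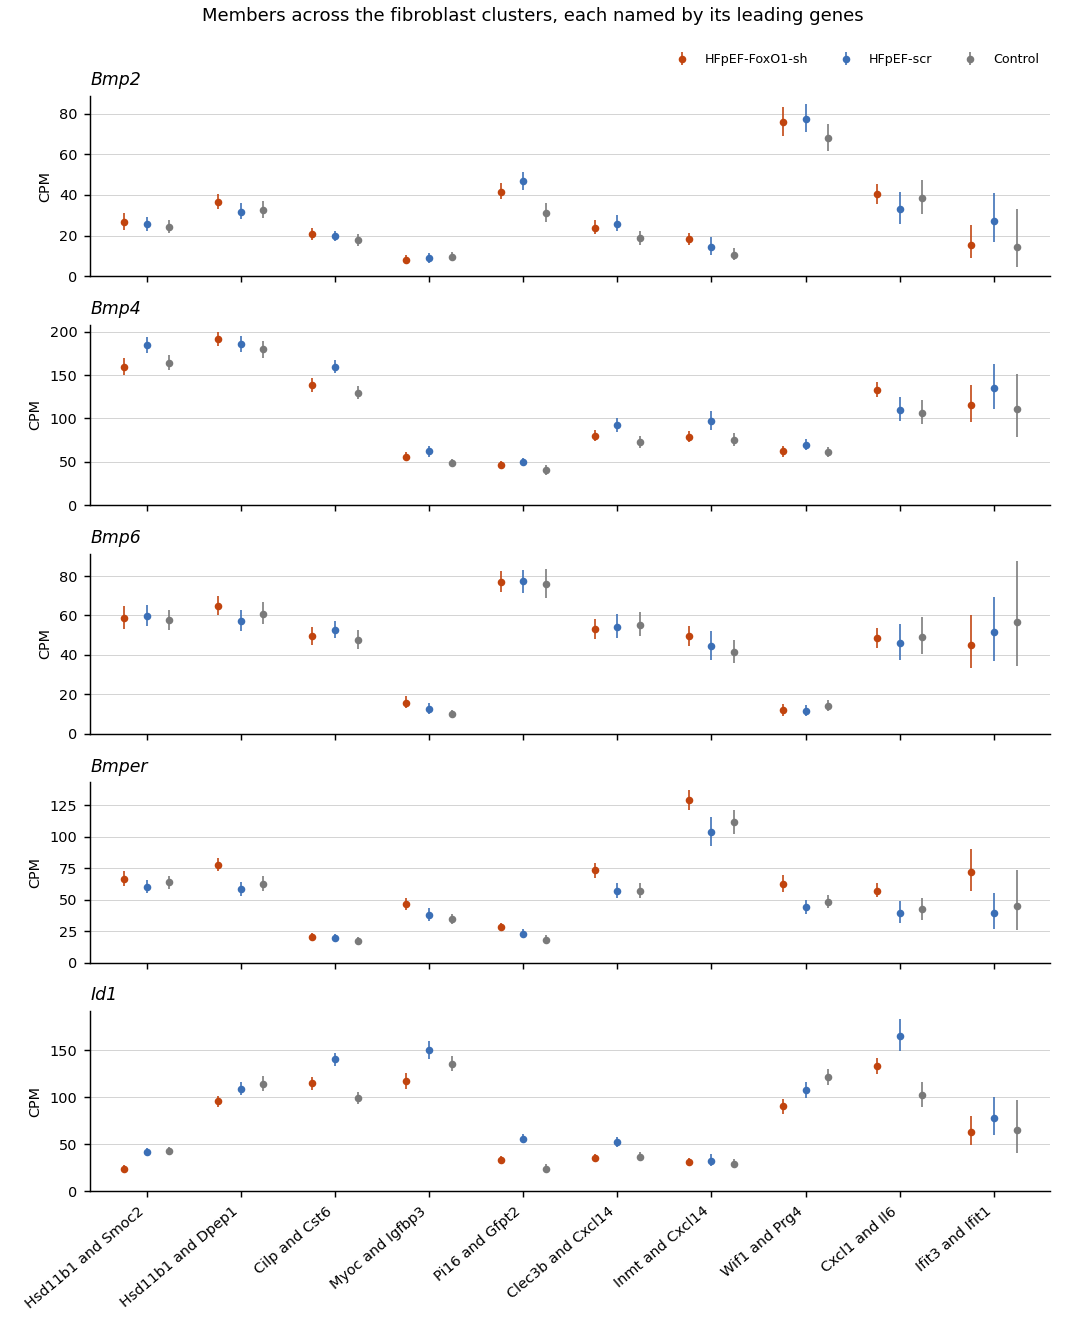
Bmp2, Bmp4, Bmp6, Bmper and Id1 in the 10 fibroblast clusters, each named by its leading genes. Points are CPM in 1 cluster and library (HFpEF-FoxO1-sh left, HFpEF-scr middle, Control right) with 95% Poisson intervals. Bmp2 was highest in the Wif1 and Prg4 cluster, Bmper in the Inmt and Cxcl14 cluster, and Id1 was lower in HFpEF-FoxO1-sh than in HFpEF-scr in every cluster.

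The other members also divided fibroblasts into clusters of high and low level. Bmp2 was highest in the cluster led by Wif1 and Prg4, at 75.9, 77.5 and 68.0 CPM in HFpEF-FoxO1-sh, HFpEF-scr and Control, and lowest in that led by Myoc and Igfbp3, at 8.21, 8.85 and 9.58 CPM. Bmp4 ran the other way in part, with 192, 186 and 180 CPM in the cluster led by Hsd11b1 and Dpep1 and 61.8, 69.5 and 60.8 CPM in the Wif1 and Prg4 cluster. Bmp6 was at 76.9, 77.3 and 75.9 CPM in the cluster led by Pi16 and Gfpt2 and at 11.8, 11.7 and 14.1 CPM in the Wif1 and Prg4 cluster. The order of clusters for Bmp2 and Bmp6 differed, so the ligands were not spread alike over fibroblasts. Bmpr1a, Bmpr2 and Eng varied less between these clusters, with lowest and highest values of 73.6 and 123, 113 and 185, and 114 and 184 CPM over all clusters and libraries.

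Id1 (ENSMUSG00000042745, chromosome 2, 152736251 to 152737410, plus strand, 2 exons) encodes an inhibitor of DNA binding by helix-loop-helix factors and is a direct target of SMAD1 and SMAD5, though other signals also induce it. It was highest in endothelial cells, at 769 CPM (745–794) in HFpEF-FoxO1-sh, 697 CPM (677–718) in HFpEF-scr and 613 CPM (590–636) in Control, and 87.5% to 91.4% of these cells had an Id1 UMI, against 6.72% to 8.34% of macrophages at lower depth. HFpEF-FoxO1-sh relative to HFpEF-scr was 1.10 (1.06–1.15) and HFpEF-scr relative to Control 1.14 (1.09–1.19) in endothelial cells. The order of libraries was the reverse in smooth muscle cells, at 133, 142 and 168 CPM. There HFpEF-scr relative to Control was 0.845 (0.752–0.949). HFpEF-FoxO1-sh relative to HFpEF-scr was 0.936 (0.824–1.06), so counting error does not separate these libraries.

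In fibroblasts Id1 was lowest in HFpEF-FoxO1-sh. It was at 74.0 CPM (72.0–75.9) in HFpEF-FoxO1-sh, 94.5 CPM (92.1–97.0) in HFpEF-scr and 81.1 CPM (78.8–83.5) in Control, with a ratio of 0.782 (0.754–0.812) for HFpEF-FoxO1-sh relative to HFpEF-scr. That ratio was below 1 in 10 of 10 fibroblast clusters, from 0.566 to 0.940. HFpEF-scr relative to Control was 1.17 (1.12–1.21) in fibroblasts, above 1 in 7 of 10 clusters, and highest at 2.31 in the cluster led by Pi16 and Gfpt2. In endocardial cells, too, HFpEF-FoxO1-sh was lowest: Id1 was at 210, 299 and 282 CPM in HFpEF-FoxO1-sh, HFpEF-scr and Control, a ratio of 0.703 (0.633–0.781) for HFpEF-FoxO1-sh relative to HFpEF-scr. Over the alternatives of processing this endocardial ratio ran from 0.617, with each cell classed singly, to 0.928, with cells thinned to 1000 UMIs. Lymphatic endothelial cells had 191, 180 and 126 CPM, and HFpEF-scr relative to Control was 1.43 (1.23–1.67).

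Id1 also differed by over 1.5-fold in small classes, on few cells. Among all genes measured there, 3.68% of dendritic and 6.55% of Schwann cell genes were as much lower in HFpEF-FoxO1-sh than in HFpEF-scr, and 18.9% of pericyte genes as much higher. In HFpEF-scr against Control, 4.09% of dendritic, 5.53% of Schwann and 9.66% of monocyte genes were as much higher and 11.4% of pericyte genes as much lower. In dendritic cells it was at 17.6, 68.2 and 22.7 CPM in HFpEF-FoxO1-sh, HFpEF-scr and Control, from 173, 185 and 147 cells, and 10 cells held 86.7%, 71.9% and 77.1% of the UMIs. With thinned cells HFpEF-scr relative to Control in dendritic cells was 1.20, in place of 2.999. Schwann cells had 43.4, 114 and 59.5 CPM of Id1 and 6624, 11801 and 11897 CPM of summed fibroblast markers, whose part in the result was not tested. There 10 cells held 93.9%, 84.3% and 86.7% of the Id1 UMIs. Monocytes had 182, 180 and 105 CPM of Id1, and 10 cells held 77.3%, 39.1% and 79.7% of the UMIs. Pericytes had 205, 77.4 and 166 CPM, but HFpEF-scr had only 53 of them, and with a mitochondrial limit of 50% the ratio of HFpEF-FoxO1-sh relative to HFpEF-scr was 0.904 in place of 2.65. Summed fibroblast markers in pericytes were 7765, 12534 and 14096 CPM, and their part was not tested.

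**Figure D5:**
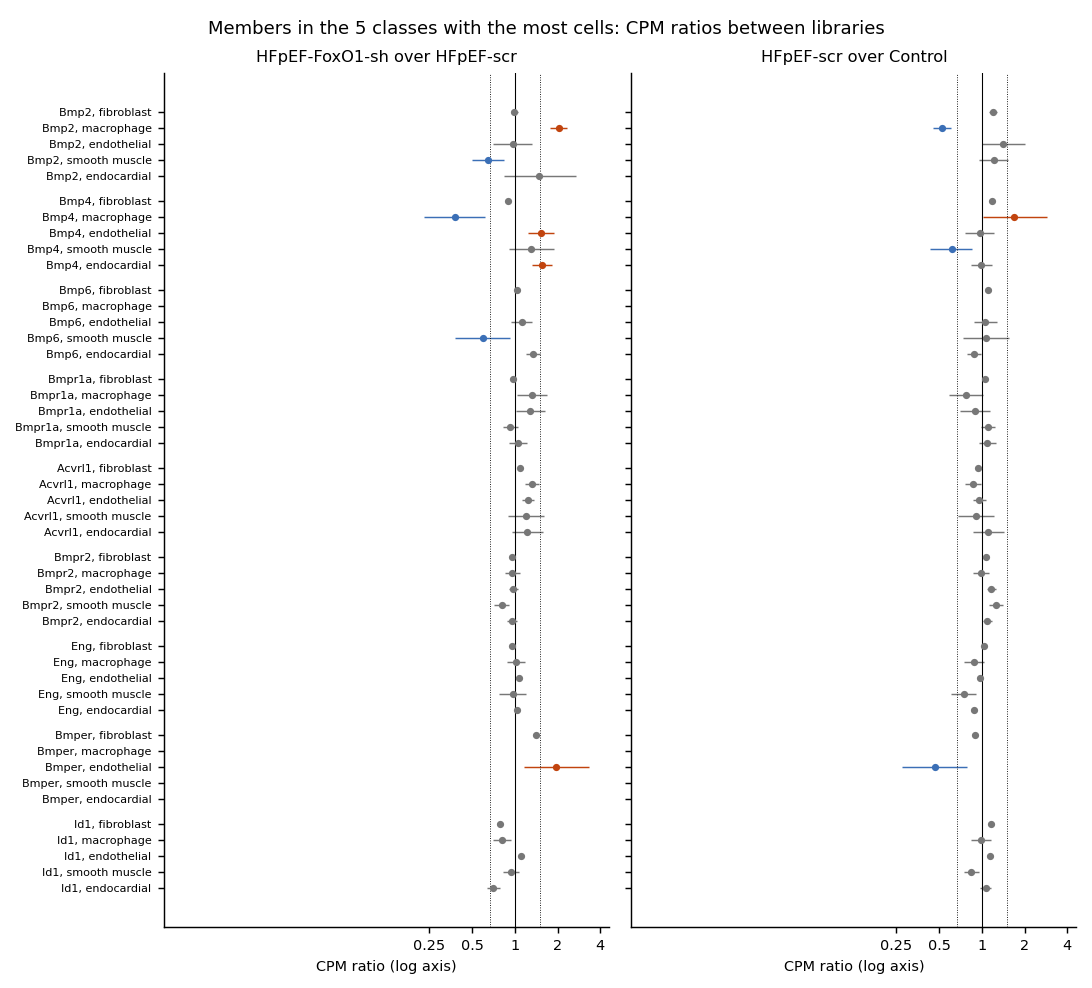
CPM ratios of the members in the 5 classes with the most cells, HFpEF-FoxO1-sh relative to HFpEF-scr on the left and HFpEF-scr relative to Control on the right, on log axes with 95% conditional binomial intervals of counting error. Dotted lines mark 1.5-fold, red points lie at least 1.5-fold higher and blue points at least 1.5-fold lower, and rows with no point had under 50 UMIs over both libraries. Bmp2 in macrophages lay past the dotted lines with narrow intervals in both panels.

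Counts past 1.5-fold were read beside all genes measured by the same rule (at least 50 UMIs over both libraries in a class). Of the 10 members, 9 could be measured in fibroblasts and Grem1 could not, and 0 of the 9 were past 1.5-fold there in either comparison. Among all fibroblast genes 1.96% were higher and 1.71% lower in HFpEF-FoxO1-sh relative to HFpEF-scr, and 1.76% were higher and 2.04% lower in HFpEF-scr relative to Control. In macrophages 7 members were measured, with Bmp2 higher and Bmp4 lower in HFpEF-FoxO1-sh relative to HFpEF-scr (backgrounds 2.31% and 1.93%), and Bmp4 higher and Bmp2 lower in HFpEF-scr relative to Control (backgrounds 2.54% and 2.25%). The Bmp4 counts there are at background level, as stated above. In endothelial cells Bmp4 and Bmper of 9 members were higher in HFpEF-FoxO1-sh relative to HFpEF-scr (background 4.35%), and Bmper was lower and 0 higher in HFpEF-scr relative to Control (backgrounds 3.77% and 2.18%), with 38, 26 and 40 Bmper UMIs. With clusters of high doublet score left out the Bmper ratio of HFpEF-FoxO1-sh relative to HFpEF-scr in endothelial cells was 0.717, in place of 1.95.

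Over the 15 classes together, 5 of 90 member and class pairs were higher and 15 lower in HFpEF-FoxO1-sh relative to HFpEF-scr, or 5.56% and 16.7%, against backgrounds of 4.75% and 5.35%. The 90 pairs include 9 from the platelet and 9 from the erythroid class, where levels of fibroblast genes are not read as levels of those cells. Erythroid Bmp2, at 0.655 (0.410–1.02), was among the lower pairs, as was macrophage Bmp4, read as background. Of the 15 lower pairs, 6 were in B cells, where 28.0% of all measured genes were lower. Summed fibroblast markers in B cells were 3298, 25109.5 and 27639 CPM in HFpEF-FoxO1-sh, HFpEF-scr and Control, and a cluster with a high doublet score held 2.36%, 40.7% and 44.1% of the B cells. The part of these markers in the B cell values was not tested. With clusters of high doublet score left out, HFpEF-FoxO1-sh relative to HFpEF-scr in B cells was 0.122 for Bmp4, 0.321 for Acvrl1, 0.286 for Bmpr2, 0.0643 for Eng and 0.429 for Id1, with counting intervals that included 1 for Acvrl1, Bmpr2 and Id1. Over all classes 9 pairs were then lower, but no share over all genes was taken for that setting. That count shows only a dependence on processing. In HFpEF-scr relative to Control, 6 of 92 pairs were higher and 9 lower, or 6.52% and 9.78%, against backgrounds of 3.79% and 3.93%. In smooth muscle cells 0 of 8 members were higher and 2, Bmp2 and Bmp6, lower in HFpEF-FoxO1-sh relative to HFpEF-scr (backgrounds 2.80% and 3.47%), and 0 were higher and 1, Bmp4, lower in HFpEF-scr relative to Control (2.88% and 3.27%). In endocardial cells Bmp4 was higher and 0 of 8 lower in HFpEF-FoxO1-sh relative to HFpEF-scr (4.24% and 1.87%), and 0 of 7 were past the limit in HFpEF-scr relative to Control (2.93% and 3.40%). In lymphatic endothelial cells 0 of 6 were past it in HFpEF-FoxO1-sh relative to HFpEF-scr (3.93% and 2.63%), and Bmp4 was lower in HFpEF-scr relative to Control (2.42% and 3.46%). The median log2 ratio of the members in fibroblasts was -0.04 in HFpEF-FoxO1-sh relative to HFpEF-scr and 0.09 in HFpEF-scr relative to Control, beside medians of 0.05 and -0.02 for all fibroblast genes.

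The rest of the pathway was read from a list of 62 genes, of which 61 were used. In fibroblasts 45 were measured, and in HFpEF-FoxO1-sh relative to HFpEF-scr 2 were higher and 4 lower, beside 1.96% and 1.71% of all fibroblast genes. Fst, whose product follistatin binds activins and some BMPs, was at 31.8, 21.03 and 29.9 CPM in HFpEF-FoxO1-sh, HFpEF-scr and Control. Chrdl1, a BMP antagonist of the chordin family, was at 5.41, 9.33 and 7.63 CPM. Gdf10, a ligand of the superfamily, was at 9.43, 6.01 and 13.5 CPM, and was the only one past 1.5-fold in HFpEF-scr relative to Control, at 0.444 (0.391–0.503). The other lower genes, Nog, Sost and Tll2, had under 2 CPM in fibroblasts in every library.

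Of the other target genes, Id3 did not follow Id1 in fibroblasts. Its level was 586, 549 and 571 CPM in HFpEF-FoxO1-sh, HFpEF-scr and Control, a ratio of 1.07 for HFpEF-FoxO1-sh relative to HFpEF-scr. Id2 was at 282, 264 and 247 CPM in fibroblasts, again at a ratio of 1.07. In macrophages Id2 was highest in HFpEF-scr, at 231, 294 and 181 CPM, with HFpEF-scr relative to Control at 1.63 (1.53–1.74). The inhibitory Smad6 and Smad7, which are targets and brakes of the pathway, had 279, 256 and 232 CPM and 329, 310 and 326 CPM in endocardial cells, where neither was past 1.5-fold. In smooth muscle cells Smad7 was at 106, 99.2 and 153 CPM, a ratio of 0.646 (0.565–0.737) for HFpEF-scr relative to Control.

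Other pathway genes past 1.5-fold were scattered over classes. In macrophages 24 were measured: Fstl1, Nbl1 and Twsg1, all secreted, were lower in HFpEF-FoxO1-sh relative to HFpEF-scr, where 1.93% of all macrophage genes were. Acvr1, Fstl1, Bmp1 and Id2 were higher in HFpEF-scr relative to Control, where 2.54% of all macrophage genes were. Fstl1 was at 13.5, 26.3 and 17.3 CPM in macrophages, against 1147, 1250.4 and 1037 CPM in fibroblasts. In endothelial cells Hey2, a Notch and BMP target, was at 18.8, 10.9 and 11.9 CPM, and Bambi, a decoy receptor, at 23.8, 17.9 and 33.8 CPM, with HFpEF-scr relative to Control at 0.528 (0.411–0.675). In endocardial cells Gdf10 was at 35.02, 55.2 and 19.8 CPM and Fst at 29.6, 34.0 and 10.7 CPM, ratios of 2.79 (2.13–3.68) and 3.18 (2.22–4.63) for HFpEF-scr relative to Control. Sost, whose product sclerostin blocks Wnt receptors and is related to BMP antagonists, was at 90.1, 54.8 and 88.8 CPM in endocardial cells. Of 32 measured in endocardial cells in HFpEF-FoxO1-sh relative to HFpEF-scr, 3 were higher and 2 lower (4.24% and 1.87% of all genes there). Of 35 in HFpEF-scr relative to Control, 3 were higher and 1 lower (2.93% and 3.40%). In smooth muscle cells 40 were measured in HFpEF-FoxO1-sh relative to HFpEF-scr and 41 in HFpEF-scr relative to Control, with 3 higher and 2 lower in the first comparison (2.80% and 3.47% of all genes there) and 3 higher and 4 lower in the second (2.88% and 3.27%).

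Across the 15 classes in 3 libraries (45 points), members whose levels varied most alike on the log2(CPM + 1) scale were Bmpr2 and Eng, with a Pearson r of 0.893, and Bmp4 and Bmp6, with 0.887. Outside the members, the gene most like Eng was Rdx (0.958), the one most like Bmp6 was Tek (0.948), an endothelial receptor kinase, the one most like Bmper was Htra3 (0.943) and the one most like Bmp4 was Mfap2 (0.941). For Bmp2 the closest was Cdr2, at 0.799. Points of a library share its depth and its free RNA, so these values only describe the libraries.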

How the data were processed

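Single-cell RNA was captured with the 10x Chromium 3' HT v3.1 chemistry, per the labels. The authors deposited whole-number UMI counts per gene and barcode, made with Cell Ranger 6.1.2 on mm10, per the submitters' processing notes; the annotation release and the strand of counting are not given in the sources used here, and Bmp4, Bmp6, Bmpr1a, Acvrl1 and Eng overlap a gene on the other strand. The deposited counts hold no barcode under 500 UMIs.

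Barcodes were required to have 500 UMIs, 300 genes and no more than 20% mitochondrial UMIs, and Scrublet (expected rate 12%) marked and removed 537, 342 and 182 barcodes of HFpEF-FoxO1-sh, HFpEF-scr and Control. Cells were clustered together with scanpy 1.11.5 (2000 variable genes without the members or other pathway genes, 30 components, 15 neighbours, Leiden resolution 1.0). A cluster was named where at least 3 markers of a list (21 lists) stood among its 50 leading genes by fold, fibroblast clusters against the other named cells. In all 36 of 41 were named. UMIs were summed per class and library. CPM carry exact Poisson intervals, ratios exact conditional binomial intervals and shares Clopper-Pearson intervals, all at 95%. These cover counting error only. A gene counted as measured from 50 UMIs, summed over the libraries compared, and as higher or lower past 1.5-fold. With 1 library per group no test was run. The code was tested on simulated counts.

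Genes named were drawn from the members, the 3 genes most like each member, Foxo1 and pathway genes. Pathway genes were those past 1.5-fold, or else among the 3 highest of their list, in the 5 classes with the most cells. Not all of these are named. Left out among those past 1.5-fold were Gdf11 in endothelial cells, Neo1 and Id4 in endocardial cells, and Bmp5, Acvr2a, Chrdl1, Fst, Hey1 and Msx1 in smooth muscle. Gdf2, Bmp10 and fibroblast Fstl1 were singled out after their values were seen. Members, lists, markers and the fibroblast pass were chosen with earlier results of these data known. Levels are not compared between genes.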

Additional observations from a re-analysis of the deposited data

Results flagged for a closer look

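Bmp2 differed in direction between classes in HFpEF-FoxO1-sh relative to HFpEF-scr: the ratio was 2.03 in macrophages and 0.649 in smooth muscle cells, and the difference between the classes was not tested. The smooth muscle ratio was 0.496 and 1.06 within its 2 clusters, and 1.19 with cells thinned to 1000 UMIs.

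Bmp4 lay past 1.5-fold on opposite sides in different classes, again with the difference not tested. In HFpEF-FoxO1-sh relative to HFpEF-scr its ratio was 1.53 in endothelial and 1.55 in endocardial cells, and 0.380 in macrophages and 0.0579 in B cells. Without the cell richest in Bmp4 in each library the endocardial ratio was 1.19. The B cell ratio rests on 8 and 70 UMIs, in a class where 28.0% of all measured genes were at least 1.5-fold lower. With a mitochondrial limit of 50% that B cell ratio was 1.14. In HFpEF-scr relative to Control the Bmp4 ratio was 1.69 in macrophages and 1.74 in B cells. It was 0.613 in smooth muscle cells, 0.469 in lymphatic endothelial cells and 0.508 in T cells. Of all genes measured in that comparison, 3.84% in B cells were at least 1.5-fold higher and 12.3% in T cells at least 1.5-fold lower. The T cell ratio rests on 25 UMIs in HFpEF-scr and 50 in Control, of which 10 cells held 96% and 68%. Bmp4 counts in macrophages are at background level, as stated above.

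Id1 did the same, and the difference was not tested. In HFpEF-FoxO1-sh relative to HFpEF-scr its ratio was 2.65 in pericytes, and 0.0516 in B cells, 0.222 in NK cells (where 12.7% of all genes were as much lower as 1.5-fold), 0.259 in dendritic cells and 0.379 in Schwann cells. With a mitochondrial limit of 50% the B cell ratio was 0.889. In HFpEF-scr relative to Control it was 2.999 in dendritic cells, 1.92 in Schwann cells and 1.71 in monocytes, and 0.467 in pericytes.

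Mesothelial cells, the outer lining of the heart, were outside the comparisons because HFpEF-scr held only 46 of them. Bmpr1a stood there at 242 CPM in HFpEF-FoxO1-sh, 214 CPM in HFpEF-scr and 191 CPM in Control, above its level in smooth muscle cells in each library.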

How the results depend on the processing

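No paired analysis was possible because each group has 1 library and the labels give no replicate numbers; for the same reason no library could be left out. Bmp2 in macrophages stayed past 1.5-fold in 13 of 13 alternatives in both comparisons, and Bmp4 in lymphatic endothelial cells in 11 of 11 for HFpEF-scr relative to Control (0.411 to 0.580). Id1 in fibroblasts stayed between 0.751 and 0.798 for HFpEF-FoxO1-sh relative to HFpEF-scr. Results from small classes or few UMIs were less stable, and the cause was not tested.

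Some ratios past 1.5-fold crossed 1. With a mitochondrial limit of 50%, HFpEF-FoxO1-sh relative to HFpEF-scr was 1.16 for Bmp4 in macrophages, 1.14, 2.16, 1.94, 1.14 and 1.49 for Bmp4, Bmpr1a, Acvrl1, Bmpr2 and Eng in B cells, 1.93 for Id1 in NK cells, 1.05 for Eng in monocytes and 0.904 for Id1 in pericytes. Id1 in B cells was 0.889, no longer past 1.5-fold. HFpEF-scr relative to Control was then 0.841 for Bmp4 in macrophages, 1.28 for Bmper in endothelial cells, 0.657 for Id1 in B cells, 1.80 for Eng in T cells and 1.12 for Id1 in pericytes. With each cell classed singly, Id1 in pericytes was 0.963 in HFpEF-FoxO1-sh relative to HFpEF-scr. HFpEF-scr relative to Control was then 1.22 for Id1 in pericytes, 0.912 for Bmp4 in macrophages, 0.817 for Bmp4 and 0.817 for Id1 in B cells, and 1.30 for Bmpr2 and 2.36 for Eng in T cells. With at least 1000 UMIs per barcode Bmpr2 in T cells was 1.12 in HFpEF-scr relative to Control. With cells thinned to 1000 UMIs Bmp2 in smooth muscle was 1.19 in HFpEF-FoxO1-sh relative to HFpEF-scr. With clusters of a median doublet score over 0.2 left out, an alternative added after seeing the data, Bmper in endothelial cells was 0.717 in HFpEF-FoxO1-sh relative to HFpEF-scr and Id1 in B cells 0.172 in HFpEF-scr relative to Control.

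Counts of pairs past 1.5-fold (5 higher and 15 lower in HFpEF-FoxO1-sh relative to HFpEF-scr, 6 higher and 9 lower in HFpEF-scr relative to Control) moved with these settings. A mitochondrial limit of 10% gave 8 and 4 lower pairs in the 2 comparisons, with 7 classes left, and Scrublet marked 2.29% of HFpEF-FoxO1-sh barcodes there but only 0.0581% of HFpEF-scr and 0.154% of Control barcodes, so doublets were removed unevenly between the libraries compared in that alternative. A limit of 50% gave 8 and 5 lower pairs. With doublets kept, 11 were higher in HFpEF-scr relative to Control. With cells classed singly the counts were 2 higher and 8 lower, then 2 higher and 5 lower, with thinned cells 2, 2, 1 and 1, and with TMM scaling (edgeR 4.0.16) 3 were higher in HFpEF-FoxO1-sh relative to HFpEF-scr. Leaving out the clusters of high doublet score gave 9 lower pairs in that comparison. Shares over all genes are not given for the settings up to here, so their counts show only a dependence on processing. A minimum of 20 UMIs gave 29 of 108 pairs lower in HFpEF-FoxO1-sh relative to HFpEF-scr, or 26.9% (background 9.10%). It gave 16 of 110 pairs higher in HFpEF-scr relative to Control, or 14.5% (6.96%). With a minimum of 1 UMI, 11 of 136 pairs were higher and 47 lower in the first comparison, or 8.09% and 34.6% (18.3% and 20.6%). In the second, 28 of 137 were higher and 21 lower, or 20.4% and 15.3% (18.7% and 18.1%). With the fold limit set lower than 1.5 there were 14 higher (14.8%) and 20 lower (13.2%), then 13 higher (12.2%) and 14 lower (12.8%). Member ratios moved most at the 10% limit, where 37 stayed within their counting interval and 46 moved beyond it. At the 50% limit 77 stayed, 14 moved and 14 turned, with thinned cells 66 stayed, 38 moved and 1 turned, and under TMM scaling 103 stayed and 2 moved. Turned counts only ratios past 1.5-fold that crossed 1, and ratios within 1.5-fold crossed it too. In HFpEF-FoxO1-sh relative to HFpEF-scr, Bmpr1a in macrophages went from 1.32 to 0.551 at the 10% limit. At the 50% limit Bmpr1a in endothelial cells went from 1.29 to 0.782 and Bmp2 in endocardial cells from 1.49 to 0.910.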

Other observations

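Other pathway genes varied by class in ways not given above. In smooth muscle cells Atoh8, a helix-loop-helix factor, was at 20.1, 11.9 and 20.7 CPM in HFpEF-FoxO1-sh, HFpEF-scr and Control, lowest in HFpEF-scr, and Id4 was at 71.2, 107 and 107 CPM, lowest in HFpEF-FoxO1-sh. In endocardial cells Htra1, a secreted protease, was at 56.1, 35.5 and 41.4 CPM and the homeobox gene Msx1 at 32.0, 19.0 and 22.5 CPM. In macrophages Acvr1, a type I receptor, was at 14.5, 18.0 and 11.3 CPM. These are values of 1 library each, with no test.

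A smooth muscle cluster had Sost among its leading genes although Sost was kept out of clustering, and an endothelial cluster was led by Rgs5, a pericyte marker, and Rbp7.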
